A study of Mus musculus with 2 samples.

Results

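The 10 genes Hspa5, Hsp90b1, Herpud1, Sdf2l1, Creld2, Pdia4, Pdia6, Dnajb9, Manf and Xbp1 encode chaperones and folding enzymes of the endoplasmic reticulum (ER) and factors of the unfolded protein response. They were taken by name from the 17829 gene symbols of a single-cell count matrix, with earlier results of these data known, and all 10 were found. The matrix holds live, EpCAM-positive cells sorted from the colonic epithelium of C57BL/6 mice and profiled by 10x Genomics 3' sequencing. One library is labelled Mettl14_WT and the other Mettl14_KO (WT and KO in what follows), and the METTL14 protein is the partner that METTL3 needs to methylate adenosines in RNA. GEO's series text gives a time of 2 weeks with no starting point, and the promoter that drove the deletion, the deleted exons and the number of animals per library are not given in the sources used here. Both libraries held cells of 2 kinds by sex-linked RNA, with 1689 WT and 1696 KO cells that had Xist but no Y-linked UMI and 1540 and 996 with the reverse, so neither library reads as 1 animal.

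Proteins that enter the secretory route fold in the ER, where Hspa5 (BiP) and Hsp90b1 (GRP94) bind unfolded chains and protein disulfide isomerases such as Pdia4 and Pdia6 form disulfide bonds. When unfolded chains accumulate, the sensors Ern1 and Ern2 (IRE1 alpha and beta), Atf6 and Eif2ak3 (PERK) raise the transcription of chaperones and degradation factors, through spliced Xbp1, cleaved ATF6 and ATF4. In the colon, goblet cells carry a heavy folding load because they secrete the mucin Muc2, and Xbp1 is known for its role in intestinal secretory cells.

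The genes are textbook targets of promoter elements bound by ATF6 and XBP1, so their promoters are shown first. In RefSeq promoters of GRCm38.p6, each 300 bases long and reaching from 250 bases before the start to 50 after it, 9 of the 10 genes had an entry. Manf had none. The ER stress response element, CCAAT and CCACG with 9 bases between them, was searched as exact letters on both strands. It was in the promoters of Hspa5, Hsp90b1, Creld2 and Pdia6, which are 4 of 9, against 39 of 32851 promoters in all (0.119%). The variant element ATTGG and CCACG with 1 base between them was in the Herpud1 promoter and in 12 promoters in all (0.0365%). The UPR element TGACGTGG was in 0 of 9 and in 222 promoters in all (0.676%). The short parts are common: CCACG alone was in 8 of 9 and 32.8% of all promoters, and CCAAT alone in 8 of 9 and 37.4%. Hspa5 and Hsp90b1 are printed whole because they hold the same element and encode the 2 main chaperones, whose KO to WT ratios differ. Capitals mark the fixed letters of each match, and all sequences run 5′ to 3′ in the sense of the gene. Hspa5 lies on the plus strand at chr2:34771840-34772139, with its match 65 to 47 bases before the start; the GENCODE model of the gene begins further upstream and covers the match. Hsp90b1 lies on the minus strand at chr10:86705395-86705694 and has a match 212 to 194 bases before the start and a second one, on the other strand, 107 to 89 bases before it.
Hspa5: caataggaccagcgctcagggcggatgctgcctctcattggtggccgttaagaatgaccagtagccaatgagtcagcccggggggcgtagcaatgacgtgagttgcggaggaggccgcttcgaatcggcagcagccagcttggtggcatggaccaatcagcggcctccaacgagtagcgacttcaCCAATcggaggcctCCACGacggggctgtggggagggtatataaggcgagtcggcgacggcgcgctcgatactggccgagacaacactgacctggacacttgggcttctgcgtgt
Hsp90b1: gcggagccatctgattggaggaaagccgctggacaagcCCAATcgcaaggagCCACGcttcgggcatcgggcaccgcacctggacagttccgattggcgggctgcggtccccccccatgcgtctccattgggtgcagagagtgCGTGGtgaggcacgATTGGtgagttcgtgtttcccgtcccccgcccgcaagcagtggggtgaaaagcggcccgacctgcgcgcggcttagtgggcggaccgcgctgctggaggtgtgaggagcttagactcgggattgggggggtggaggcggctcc
Windows of 60 bases show the other 3 matches: Herpud1 (plus strand, chr8:94386352-94386411), Creld2 (plus strand, chr15:88819499-88819558, match on the other strand, 126 to 108 bases before the start) and Pdia6 (plus strand, chr12:17266470-17266529, 98 to 80 bases before the start). The Herpud1 match ends 42 bases before the start.
Herpud1: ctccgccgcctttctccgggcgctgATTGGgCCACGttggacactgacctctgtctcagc
Creld2: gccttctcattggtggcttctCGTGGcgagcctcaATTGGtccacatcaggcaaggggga
Pdia6: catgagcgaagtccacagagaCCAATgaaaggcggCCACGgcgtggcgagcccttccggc
A match describes letters only. No match was found for any of the 3 elements in Sdf2l1, Pdia4, Dnajb9 and Xbp1, which says only that these letters are not in these windows.

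The WT library held 4210 cells and 60205658 UMIs (unique molecular identifiers, each a counted transcript), with a median of 12094 per cell. The KO library held 3653 cells and 37635762 UMIs, with a median of 9119. The libraries shared 2 cell barcodes. Levels are CPM, a gene's UMIs scaled by all UMIs pooled across the cells in a library or cluster. Each ratio is the log2 of the KO level divided by the WT level. The 95% intervals in brackets are exact, binomial for ratios and shares and Poisson for levels, and cover counting error only. With 1 library per genotype no test of the genotype is possible, and no p-value is given. A gene is called higher or lower when it is at least 1.5-fold apart with an interval that leaves out equal levels. Genes with at least 50 UMIs over both libraries count as measured, and all 10 genes passed over all cells and in each of the 6 clusters compared. The authors' clusters are used by number: from fixed marker lists, cluster 4 was colonocyte-like, cluster 5 enteroendocrine-like and cluster 3 cycling-like, while both 1 and 2 were goblet-like. Cluster 0 has no name here: its leading genes were pancreatic enzyme genes carried by 33 enzyme-rich WT cells, and without those cells Ccl20, Msln and Spib led it. Cluster 6 was led by stromal collagen genes, held 117 WT and 31 KO cells, and was not compared. All 6 epithelial markers were detected in both libraries. Plasma cells also express these ER genes strongly; 6 of the 7 plasma cell markers in the matrix were detected in each library at sums of 4.22 CPM in WT and 1.49 CPM in KO, with Igha at 0 in KO. The 11 immune markers, all detected, summed to 80.7 and 101 CPM. Without the 240 WT and 167 KO cells that held at least 3 immune, plasma cell or stromal markers, the counts of called members over all cells given below were the same. Mettl14 itself stood at 10.5 CPM in WT and 5.34 CPM in KO, a log2 ratio of −0.97 (−1.21 to −0.74). By cluster its ratio ran from −0.36 in cluster 0 and −0.39 in cluster 5, both short of 1.5-fold, to −1.65 in cluster 2. Tags of Mettl14 come from the 3' end, so these values check the label only if the deleted part covers them.

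Over all cells, the 10 genes did not move as a block. Hspa5 was 2.45-fold and Manf 1.59-fold higher in the KO library, Pdia4, Dnajb9 and Pdia6 were higher by less than 1.5-fold, Hsp90b1, Creld2 and Xbp1 were within 1.1-fold of equal, and Herpud1 and Sdf2l1 were lower by less than 1.5-fold. By the 1.5-fold rule 2 of 10 were called higher, 0 lower and 8 neither. Over all 13334 measured genes 16.7% were called higher and 16.2% lower, so the count of called members is near the background. The median log2 ratio of the 10 genes was 0.17 and that of all measured genes −0.04. Under 11 alternative settings of scaling, weighting, depth and cells kept, the median of the 10 ran from 0.08, with each cell thinned to 3000 UMIs and all genes at −0.03, to 0.21, with the median of all genes set to 0. It was 0.10, and that of all genes −0.11, when mitochondrial, ribosomal protein and haemoglobin genes were left out of the scaling.

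Among the chaperones, Hspa5, the Hsp70 of the ER lumen (chr2:34771970-34777547, plus strand, GENCODE vM21 on GRCm38), stood at 347 CPM (342 to 352) in WT and 849 CPM (840 to 859) in KO. The log2 ratio was 1.29 (1.27 to 1.32), and 4.96% of measured genes had a higher one. Hsp90b1, the Hsp90 of the ER lumen (chr10:86690209-86705509, minus strand), stood at 508 CPM (502 to 513) in WT and 497 CPM (490 to 504) in KO. Its log2 ratio of −0.03 (−0.06 to −0.00) was nearly equal levels, in contrast to Hspa5. Exons of Hsp90b1 overlap other annotated genes on both strands, and it is not stated whether counting used strand.

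Of the proteins that work with Hspa5, Manf, a small protein that binds BiP and can be secreted, stood at 222 CPM (218 to 226) in WT and 353 CPM (347 to 359) in KO, a log2 ratio of 0.67 (0.63 to 0.70). Manf (chr9:106838312-106891979, minus strand) overlaps exons of Rbm15b on its own strand and of Dcaf1 on the other, so reads could be split between them. Rbm15b stood at 22.3 CPM in WT and 21.0 CPM in KO, and Dcaf1 at 27.3 and 32.0 CPM. Both lie far below Manf and neither was called, with log2 ratios of −0.08 (−0.21 to 0.04) and 0.23 (0.12 to 0.34). Dnajb9 (ERdj4), a J-domain co-chaperone of BiP, stood at 25.8 CPM (24.6 to 27.1) in WT and 35.5 CPM (33.6 to 37.5) in KO, a log2 ratio of 0.46 (0.35 to 0.57). Sdf2l1, a luminal protein that acts with J-domain co-chaperones of BiP, went the other way: 51.9 CPM (50.1 to 53.8) in WT and 41.5 CPM (39.5 to 43.6) in KO, a log2 ratio of −0.32 (−0.41 to −0.23). Among these 3 partners of Hspa5, then, only Manf was past 1.5-fold.

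The disulfide isomerases were both somewhat higher in KO. Pdia4 (ERp72) stood at 88.6 CPM (86.2 to 91.0) in WT and 124 CPM (121 to 128) in KO, a log2 ratio of 0.49 (0.43 to 0.55). Pdia6 (P5) stood at 226 CPM (222 to 230) in WT and 268 CPM (262 to 273) in KO, a log2 ratio of 0.24 (0.20 to 0.28). Creld2, an ER-resident protein with EGF-like repeats that is induced by ER stress, stood at 30.1 CPM (28.7 to 31.5) in WT and 28.4 CPM (26.8 to 30.2) in KO. Its log2 ratio was −0.08 (−0.19 to 0.03), a difference not detectable at this depth. Herpud1, a membrane protein of the ER-associated degradation machinery, stood at 112 CPM (110 to 115) in WT and 101 CPM (97.9 to 104) in KO, a log2 ratio of −0.15 (−0.21 to −0.09). The transcription factor gene Xbp1 (chr11:5520659-5525893, plus strand) stood at 142 CPM (139 to 145) in WT and 152 CPM (148 to 155) in KO, a log2 ratio of 0.09 (0.05 to 0.14). 3' tags count spliced and unspliced Xbp1 together, so these levels say nothing of its splicing by IRE1.

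The genes also had a largely common order across clusters. In the WT library cluster 2, goblet-like, was highest for all 10 genes. In the KO library cluster 1 or cluster 2, both goblet-like, was highest for all 10. Cluster 0 was lowest for 8 of 10 genes in WT, the exceptions being Creld2 (cluster 4) and Dnajb9 (cluster 3). It was lowest for 9 of 10 in KO, the exception being Dnajb9 (cluster 3). The shares of all measured genes that are highest or lowest in these clusters were not computed. The counts therefore do not show whether this order is particular to the 10 genes. The largest spread in WT was that of Herpud1, from 208 CPM (199 to 217) in cluster 2 to 50.5 CPM (46.7 to 54.5) in cluster 0, 4.12-fold. Xbp1 ran from 273 CPM (263 to 284) to 66.9 CPM (62.5 to 71.5) between the same clusters of WT, 4.09-fold, and from 269 CPM (256 to 283) to 64.1 CPM (58.3 to 70.3) in KO, 4.20-fold. Hspa5 ran 2.98-fold in WT and 2.56-fold in KO, and Pdia4 least in WT, 2.12-fold. Intervals of neighbours in the order overlapped for clusters 4 and 0 of Hspa5 in WT and for clusters 1 and 2 and clusters 4 and 3 in KO. For Xbp1 they overlapped for clusters 4 and 3 in WT and for no neighbours in KO. Cluster 6 was left out of these orders. In it Hspa5 stood at 319 CPM (276 to 366) in WT and 786 CPM (635 to 961) in KO, while Creld2 had 18 UMIs in WT and 0 in KO, which at a floor of 3 counts cannot be told from a low level. These pairs do not set like cells side by side. In cluster 6 the tuft cell markers summed to 838 CPM in WT and 41.8 CPM in KO, and the immune markers to 2002 and 117 CPM.

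**Figure D1:**
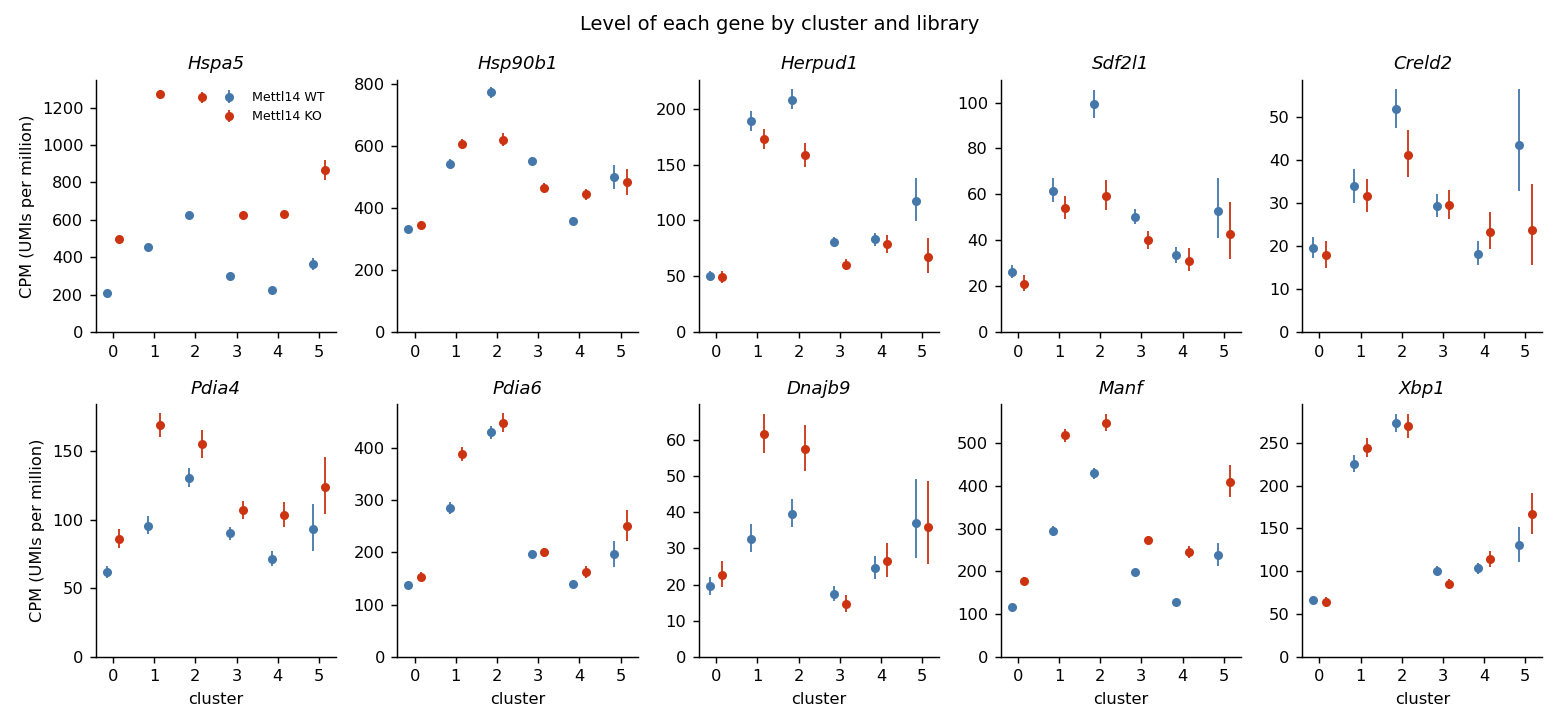
Level of each of the 10 genes in CPM (vertical axis, from 0, scaled per gene) in clusters 0 to 5 (horizontal axis) of the WT (blue) and KO (red) libraries, with exact Poisson 95% intervals. Clusters 1 and 2 are highest for nearly every gene, and the KO points of Hspa5 lie above the WT points in each cluster.

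Within the clusters Hspa5 was higher in KO in 6 of 6. It stood at 209 CPM in WT and 495 CPM in KO in cluster 0, at 455 and 1270 in cluster 1, at 624 and 1255 in cluster 2, at 302 and 625 in cluster 3, at 226 and 631 in cluster 4 and at 363 and 865 in cluster 5. In every one of these clusters the KO level of this chaperone was thus above the WT level of cluster 1, the lower of the goblet-like clusters in WT. The WT level of cluster 2, also goblet-like, was 624 CPM (608 to 639). KO cluster 0 lay below it (479 to 512), and the intervals of KO clusters 3 (610 to 641) and 4 (609 to 653) overlapped it. The log2 ratios ran from 1.01 (0.96 to 1.06) in cluster 2 to 1.48 (1.43 to 1.53) in cluster 1. Manf had an interval above equal levels in 6 of 6 clusters and was called in clusters 0, 1, 4 and 5, with log2 ratios from 0.35 (0.29 to 0.42) in cluster 2 to 0.94 (0.83 to 1.06) in cluster 4. Pdia4 also had an interval above equal levels in 6 of 6, from 0.25 in cluster 3 to 0.82 (0.70 to 0.95) in cluster 1, where alone it was called. Dnajb9 was called only in cluster 1, at 32.7 CPM in WT and 61.7 CPM in KO, a log2 ratio of 0.91 (0.70 to 1.13). Its interval lay above equal levels in 2 of 6 clusters and took them in in the other 4, with −0.25 in cluster 3 as its lowest value. Pdia6 was above equal levels in 4 of 6 clusters and called in none, with 0.45 in cluster 1 as its highest value. Hspa5 kept its call in clusters 0 to 4 under 10 of 10 alternative settings; in cluster 5 it lost it in 1, the cells with Y-linked UMIs and without Xist, where the ratio was 0.46 (0.11 to 0.81). Manf in cluster 0 lost its call in 3 of 10, with 0.43 as the lowest value, and in cluster 5 in 2 of 10, with 0.35 as the lowest.

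The genes that were lower in KO were so in several clusters as well. Herpud1 and Sdf2l1 each had an interval below equal levels in 4 of 6 clusters and above it in none. The share of all measured genes with such an interval is not given here. In cluster 1, counted for both, the ratios were −0.13 and −0.19, near the median of all measured genes there (−0.12). With that median set to 0 they were −0.01 (−0.11 to 0.09) and −0.07 (−0.25 to 0.11). Sdf2l1 was called lower in cluster 2, at 99.2 CPM (93.1 to 106) in WT and 59.4 CPM (53.1 to 66.1) in KO, a log2 ratio of −0.74 (−0.92 to −0.56). In cluster 5, the enteroendocrine-like cells, Herpud1 stood at 118 and 67.5 CPM, a log2 ratio of −0.80 (−1.22 to −0.39), and Creld2 at 43.4 and 23.7 CPM, −0.87 (−1.60 to −0.19). That cluster is small, with 99 WT and 151 KO cells, and Creld2 rests there on 55 and 27 UMIs. Its call was lost in 4 of 10 alternative settings and that of Herpud1 in 2 of 10, while that of Sdf2l1 in cluster 2 was kept in 10 of 10. Thinned to equal depth, the ratio in cluster 5 was −1.15 (−2.56 to 0.19) for Creld2 and −0.70 (−1.44 to 0.02) for Herpud1, both still lower in KO but with intervals that took in equal levels. In the cells of that cluster with Y-linked UMIs and without Xist, the ratio of Herpud1 was −0.22 (−1.18 to 0.70). Hsp90b1 and Xbp1 had intervals on both sides of equal levels, according to the cluster.

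Read against all measured genes, the count was highest in cluster 1, where 4 of 10 genes were called higher and 0 lower, against 13.1% and 16.8% of measured genes. In cluster 0 the counts were 2 and 0 against 19.9% and 12.9%, in cluster 2 they were 1 and 1 against 14.4% and 16.7%, and in cluster 3 they were 1 and 0 against 17.5% and 11.7%. In cluster 4 they were 2 and 0 against 16.0% and 12.7%, and in cluster 5 they were 2 and 2 against 14.9% and 9.76%. Of the 60 values of a gene in a cluster, 12 were called higher and 3 lower, and 6 of the 12 were Hspa5. The genes' median log2 ratio was highest in cluster 1, at 0.31 where all measured genes had −0.12, and lowest in cluster 3, at −0.12 where all had 0.03.

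**Figure D2:**
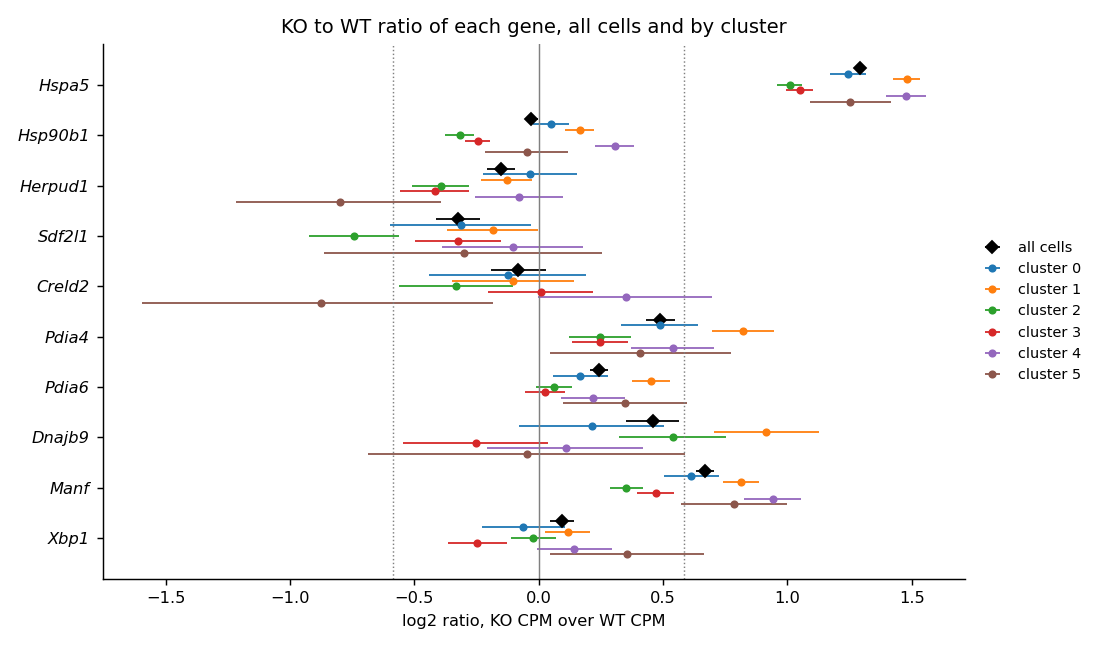
Log2 ratio of KO over WT CPM (horizontal axis) of each gene over all cells (black diamonds) and in clusters 0 to 5 (coloured points), with exact binomial 95% intervals. The dotted lines mark 1.5-fold; all Hspa5 values lie beyond the right one, from 1.01 to 1.48, and those of Hsp90b1 lie between −0.32 and 0.31.

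The share that Hspa5 took of the UMIs of the 10 genes does not depend on how the libraries are scaled, and was computed after the levels had been seen. Over all cells Hspa5 held 19.8% (19.54 to 20.02) of the 105550 UMIs of the 10 genes in WT and 34.7% (34.36 to 34.98) of 92175 in KO. Within each library the share hardly varied among clusters, from 18.7% to 20.6% in WT and from 32.9% to 36.1% in KO, although the summed level of the genes in WT ran from 1039 CPM in cluster 0 to 3060 CPM in cluster 2. In the Xist-positive cells that lacked Y-linked UMIs the shares were 19.5% and 34.7%, and in the reverse set they were 19.9% and 34.7%. In the reverse set of cluster 5, with 625 and 469 UMIs of the 10 genes, they came closer, at 22.6% (19.3 to 26.0) and 29.2% (25.1 to 33.6). Without the enzyme-rich cells the WT share was 19.7%. Manf held 12.7% in WT and 14.4% in KO. The 10 genes summed to 1753 CPM in WT and 2449 CPM in KO, and without Hspa5 to 1406 and 1600 CPM, so most of the difference in the sum was Hspa5.

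**Figure D3:**
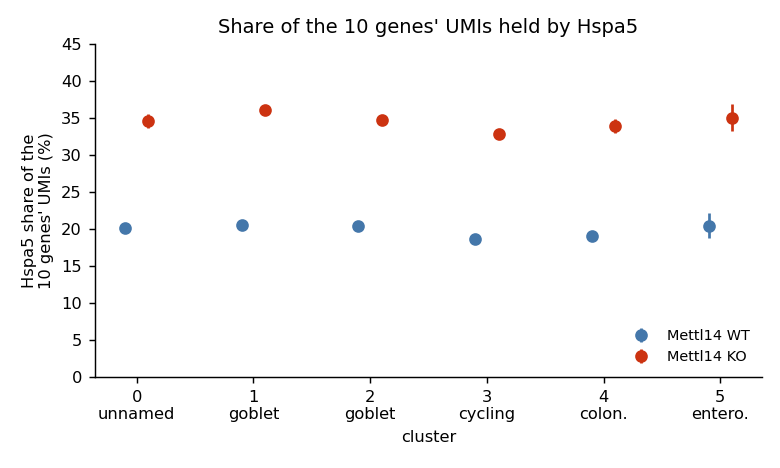
Share of the UMIs of the 10 genes that belong to Hspa5, in percent (vertical axis, from 0), in clusters 0 to 5 of WT (blue) and KO (red), with exact Clopper-Pearson 95% intervals. WT values lie between 18.7% and 20.6% and KO values between 32.9% and 36.1%.

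Per cell, Hspa5 was seen in more KO than WT cells. A UMI of Hspa5 was found in 85.5% of WT cells (84.4 to 86.6) and 95.5% of KO cells (94.8 to 96.2), at unequal depth. With each cell thinned to 3000 UMIs, which left out 172 WT and 97 KO cells, the shares were 56.4% (54.8 to 57.9) and 82.4% (81.1 to 83.6). The thinned mean was 1.02 UMIs per cell in WT and 2.42 in KO, the median 1 and 2 and the 90th percentile 3 and 5, so the middle and the upper part of the distribution both stood higher. The tenth of cells richest in Hspa5 held 34.7% of the Hspa5 UMIs in WT and 31.2% in KO, before thinning. Manf was found in 43.0% of thinned WT cells and 56.2% of thinned KO cells, and Pdia4 in 22.7% and 30.0%. For Hsp90b1 the shares were 70.5% (69.0 to 71.9) and 72.1% (70.6 to 73.6), and for Xbp1 33.1% (31.6 to 34.5) and 32.4% (30.8 to 33.9), with overlapping intervals. Free RNA in the droplets adds to such shares, and no cell type is known to lack these genes, so these shares have no background value.

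**Figure D4:**
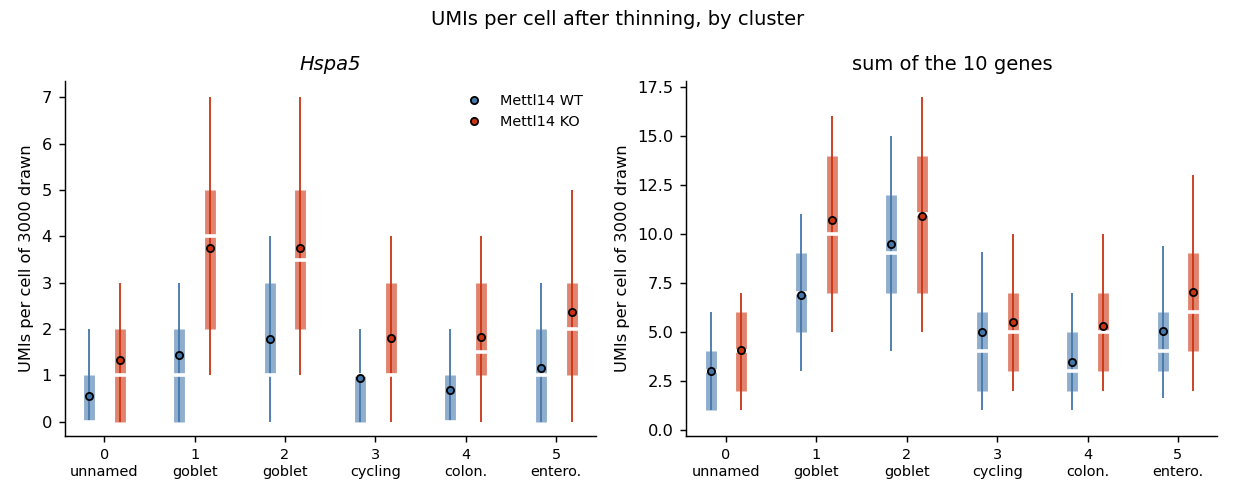
UMIs per cell after thinning to 3000 UMIs (vertical axis) for Hspa5 (left) and the sum of the 10 genes (right) by cluster in WT (blue) and KO (red). Thick bars span the quartiles, thin lines the 10th to 90th percentiles, white ticks the medians and circles the means; in cluster 1 the mean of Hspa5 is 1.44 in WT and 3.74 in KO.

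The goblet-like clusters 1 and 2 differed from each other in WT and much less in KO. In WT all 10 genes were higher in cluster 2 than in cluster 1 with an interval that left out equal levels, as were 22.4% of measured genes. The median log2 ratio of cluster 2 over cluster 1 was 0.48 for the 10 genes and 0.02 for all genes. Sdf2l1 differed most, at 61.6 and 99.2 CPM in clusters 1 and 2 (0.69, 0.53 to 0.84), and Herpud1 least, at 189 and 208 CPM (0.14, 0.05 to 0.23). In KO 4 genes (Creld2, Pdia6, Manf and Xbp1) were higher in cluster 2, 2 (Herpud1 and Pdia4) were lower and the median was 0.06, with 0.07 over all genes, of which 19.7% were higher in cluster 2 by the same rule. Hspa5 there stood at 1270 and 1255 CPM, a log2 ratio of −0.02 (−0.06 to 0.03). Put as KO to WT ratios, the value of cluster 1 was above that of cluster 2 for 10 of 10 genes, by a median of 0.43, where it was above for 44.5% of 9938 measured genes. The ratio of the mucin Muc2 split the same way, at 0.50 in cluster 1 and −0.52 in cluster 2. The clusters were drawn from these same cells, and cluster 1 held 14.4% of WT and 20.7% of KO cells while cluster 2 held 16.7% and 14.2%. Whether the clusters hold the same kinds of cell in both libraries was not tested.

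Genes outside the 10 with the most similar profile over the 12 sums of a cluster and a library were Wars (Pearson r = 0.98 with the mean of the members' scaled levels), Mia3 (0.98), Sec61a1 (0.98), Stt3a (0.97), Pdia3 (0.97), Qsox1 (0.97), Rpn1 (0.97) and Cog2 (0.97). Wars is the cytosolic tryptophanyl-tRNA synthetase, Sec61a1 the pore of the ER translocon, Mia3 an ER exit site protein, and Stt3a and Rpn1 subunits of oligosaccharyltransferase. The sums of a library share its depth and preparation, so these values describe the pattern only. Of the 10 genes, Pdia6 (0.97) was closest to the mean profile of the other 9 members and Hspa5 (0.71) farthest from it.

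The rest of the pathway was read from 9 lists with 160 genes, by the same calls over all cells, with counts also taken under the 11 alternative settings. The background for each count is that of all measured genes, of which 16.7% were called higher and 16.2% lower over all cells. Of the 7 sensors and their proteases 1 was called higher and 0 lower, with a median log2 ratio of 0.12. Ern1, the widely expressed IRE1, stood at 8.24 CPM in WT and 12.8 CPM in KO (0.64, 0.46 to 0.82). Ern2, the IRE1 of mucus-secreting epithelia, stood at 50.6 and 46.7 CPM (−0.12, −0.20 to −0.03). The call of Ern1 was kept in 8 of 11 alternatives and lost in 3, where the list had 0 higher genes, with 0.53 as its lowest ratio, and the list's median ran from −0.06 to 0.22. Neither Atf6 (0.15, 0.03 to 0.27) nor Eif2ak3 (0.12, −0.04 to 0.29) was called over all cells, but both were called in single clusters. Atf6 was lower in cluster 5 (−1.13, −1.50 to −0.78) and stood at 0.49 (0.24 to 0.74) in cluster 1. Eif2ak3 was higher in cluster 0 on 58 and 60 UMIs (0.92, 0.38 to 1.47). It was lower in cluster 4 on 105 and 35 UMIs (−0.60, −1.19 to −0.03), just past 1.5-fold. These differences between clusters were not tested.

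Other ER chaperones differed gene by gene. Of 17 measured of 18, 3 were called higher and 2 lower, against 16.7% and 16.2% of all measured genes, with a median of 0.25. Sil1, the nucleotide exchange factor of BiP, stood at 27.8 CPM in WT and 88.9 CPM in KO (1.68, 1.59 to 1.76), above the ratio of Hspa5. It was called in 6 of 6 clusters, with ratios between 1.35 and 2.09. Hspa13, an Hsp70 of the ER, stood at 20.7 and 45.5 CPM (1.13, 1.03 to 1.24). Cnpy2 was also higher (0.74, 0.71 to 0.78). Hyou1, the large exchange factor that acts on the same step as Sil1, went the other way at 20.8 and 14.4 CPM (−0.53, −0.67 to −0.38). It was not called over all cells, but was called lower in clusters 2 (−0.84) and 3 (−0.66). Over all cells it stayed uncalled in 7 of 11 alternatives and was called lower in the others, with −0.61 as its lowest ratio. The lectin chaperones Calr (0.32, 0.30 to 0.35) and Canx (−0.24, −0.28 to −0.20) were not called over all cells. Fkbp11, a prolyl isomerase, was lower at 62.8 and 28.7 CPM (−1.13, −1.23 to −1.03). The collagen chaperone Serpinh1 was lower on few counts, 258 and 29 UMIs (−2.48, −3.08 to −1.92). The 9 stromal markers, all detected in both libraries, summed to 121 CPM in WT and 23.2 CPM in KO, and without the cells that held at least 3 immune, plasma cell or stromal markers the ratio was −0.83 and Serpinh1 was not called.

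Of 16 other oxidoreductases 1 was called higher, Pdia5 (85.6 and 131 CPM, 0.61, 0.56 to 0.67), and 1 lower, Agr3 (370 and 27 UMIs, −3.10, −3.72 to −2.53), with a median of 0.02. The call of Pdia5 was lost in 6 of 11 alternatives, with 0.54 as its lowest ratio. Agr2, which goblet cells need to make mucin, stood at 4515 and 4716 CPM over all cells (0.06, 0.05 to 0.07). By cluster its ratio went both ways. It was 0.72 in cluster 0, called higher, and 0.38 in cluster 1. In clusters 2, 3, 4 and 5 it was −0.18, −0.47, −0.40 and −0.32. These differences were not tested. P4hb, the classical disulfide isomerase, stood at 305 and 264 CPM (−0.21, −0.25 to −0.18). Of 22 genes of ER-associated degradation 4 were higher (Sel1l, Edem2, Derl1 and Os9) and 4 lower (Edem1, Derl3, Erlec1 and Rnf5), with a median of 0.06. These counts are near the shares of all measured genes, 16.7% higher and 16.2% lower. Over the alternatives the higher genes numbered 1 to 4 and the lower ones 2 to 4. Os9, Erlec1 and Rnf5 kept their calls in 11 of 11, Edem1 in 9 and Derl3 in 8. Sel1l and Edem2 kept theirs in 6 each, with lowest ratios of 0.45 and 0.50, and Derl1 in 3, with a lowest ratio of 0.52. Derl3 had 49 and 4 UMIs and is also one of the plasma cell markers, which summed to 4.22 CPM in WT and 1.49 CPM in KO. Os9, a lectin that passes misfolded glycoproteins to the ubiquitin ligase complex, stood at 43.8 and 75.1 CPM (0.78, 0.70 to 0.85). Sel1l, the scaffold of that complex, stood at 43.0 and 66.7 CPM (0.63, 0.55 to 0.71). Rnf5, a membrane-bound ubiquitin ligase, stood at 62.1 and 34.8 CPM (−0.83, −0.93 to −0.74).

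Of 23 translocation and signal peptidase genes 0 were called in either direction, with a median of −0.06, but 3 genes of the signal recognition particle lay just under 1.5-fold: Srp9 (0.58, 0.55 to 0.61), Srp19 (0.58, 0.54 to 0.63) and Srp54a (−0.58, −0.77 to −0.39). They were picked out after their values were seen. Over the 11 alternatives the list had 0 to 2 higher and 0 to 2 lower genes, and Srp54a was called lower in 8. In cluster 2, by contrast, 4 genes of this list were called lower and 0 higher, with a median of −0.26. That count is near the 16.7% of all measured genes called lower there, whose median was −0.08. In clusters 0, 1, 3, 4 and 5 the list had 0 lower genes and 1 or 2 higher ones. Of 20 N-glycosylation genes 4 were higher (Ddost, Mogs, Uggt1 and Gmppb) and 1 lower (Gfpt1), with a median of 0.13. The shares of all measured genes were 16.7% higher and 16.2% lower. Mogs and Gmppb kept their calls in 11 of 11 alternatives, Ddost in 9 and Uggt1 in 8, so that the higher genes numbered 2 to 4. Gfpt1, which makes the hexosamine precursor of glycans, stood at 438 and 261 CPM (−0.75, −0.78 to −0.71) and lost its call with equal weight for each cluster (−0.57). Of 24 genes of ER to Golgi transport 1 was higher, Sar1a (74.8 and 214 CPM, 1.52, 1.47 to 1.57), and 3 lower, with a median of −0.22. In cluster 2 that list had 10 lower genes and a median of −0.55, where 16.7% of all measured genes were called lower and their median was −0.08. Among them were the coat subunits Sec31a (−1.28) and Sec24d (−1.21) and the retrieval receptor Kdelr2 (−1.30), which brings ER proteins such as Hspa5 back from the Golgi. The other clusters had fewer: 3 lower genes in cluster 1 (median −0.24), 2 in cluster 3 (−0.18), 1 in cluster 5 (−0.15) and 0 in clusters 0 (−0.03) and 4 (−0.04), and Sar1a was called higher in 6 of 6. The difference between clusters was not tested.

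Of 18 genes of the PERK and ATF4 arm 5 were higher (Chac1, Trib3, Asns, Atf5 and Phgdh) and 3 lower (Ppp1r15a, Vldlr and Cth), with a median of 0.21. All measured genes had 16.7% called higher and 16.2% lower. Chac1, a glutathione-degrading enzyme, had 13 UMIs in WT and 295 in KO (5.18, 4.39 to 6.11), and Trib3, a pseudokinase induced with it, 7 and 132 (4.91, 3.83 to 6.26). Asns, asparagine synthetase, stood at 37.4 and 80.1 CPM (1.10, 1.02 to 1.18), and Atf5 at 12.1 and 28.9 CPM (1.25, 1.12 to 1.39). Among cells with at most 10% mitochondrial UMIs the ratio of Atf5 was 0.58 and it was not called. Atf4 itself stood at 109 and 119 CPM (0.13, 0.07 to 0.18), and Ddit3 (CHOP) at 8.80 and 8.37 CPM (−0.07, −0.28 to 0.13), so neither was called. Cth, which makes cysteine, was lower at 45.4 and 16.4 CPM (−1.47, −1.59 to −1.34). Of 12 cytosolic heat shock genes 2 were higher (Dnajb1 and Hspb1) and 1 lower (Hspa1a, on 49 and 11 UMIs), with a median of −0.02. Hspb1 (0.60, 0.37 to 0.84) lost its call in 5 of 11 alternatives and Hspa1a in 3. The ratio of Hspb1 fell below 0 in 3 of the 11, with −0.49 as its lowest value, and in the 2 clusters where it had at least 50 UMIs it was 1.71 (1.32 to 2.11) in cluster 1, called higher, and −5.96 (−11.28 to −3.43) in cluster 5, called lower on 69 and 1 UMIs. The cytosolic Hsp70 and Hsp90 genes Hspa8 (−0.17) and Hsp90ab1 (0.01) did not share the ratio of Hspa5.

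**Figure D5:**
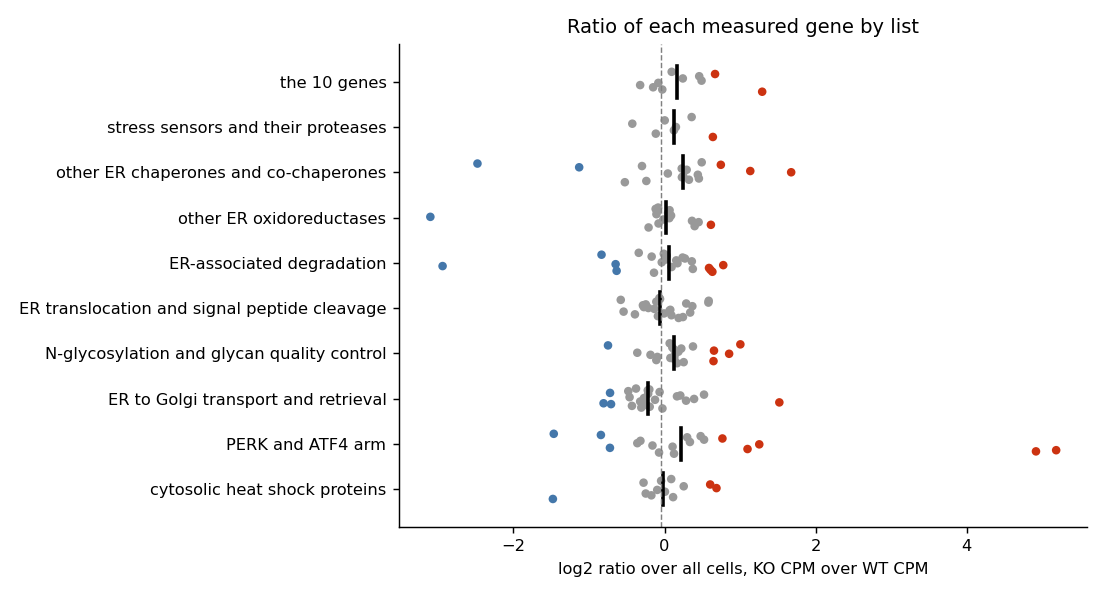
Log2 ratio of KO over WT CPM over all cells (horizontal axis) of each measured gene of the 10 members (top) and of the 9 pathway lists, with genes called higher in red, called lower in blue and neither in grey. Black ticks are list medians, between −0.22 and 0.25, and the dashed line is the median of all measured genes, −0.04.

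Members with the same promoter element had different ratios. Among the 4 members that hold the ER stress response element, the log2 ratio over all cells was 1.29 for Hspa5, 0.24 for Pdia6, −0.03 for Hsp90b1 and −0.08 for Creld2. Hsp90b1, whose printed promoter holds 2 matches, was thus at nearly equal levels, and Hspa5, whose promoter holds 1, was the highest. Of 13 other measured genes whose promoter holds the element, 1 was called higher (Spats2l, 0.78) and 3 lower (Xlr3a, −1.36, Xlr3b, −2.82, and Derl3), with a median of −0.24, where all measured genes had 16.7% called higher, 16.2% lower and a median of −0.04. Spats2l, Xlr3a and Xlr3b are named because they were called. The 13 genes also include Derl3 (−2.94, on 49 and 4 UMIs) and, not called, Calr, Canx, Dnajc3 (0.23), Syvn1 (−0.14) and Alg12 (0.10). Herpud1 (−0.15) and Dnajb11 (0.45) are among those with the variant element, of which 0 of 8 other measured genes were called and the median was 0.14. Of 107 measured genes with the UPR element 14 were higher and 23 lower, with a median of −0.17.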

How the data were processed

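Single-cell UMI counts were analysed for 1 WT and 1 KO library. The file the authors deposited holds whole-number UMI counts, with genes as rows and cells as columns, already filtered; a second deposited table gives, as other values, the library and cluster number of each cell. bcl2fastq, Cell Ranger and mm10 are named in the submitters' processing notes, with no versions; the cell filter and clustering method are not given in the sources used here, so how cells entered clusters could affect values by cluster. Shared exons and reads of unstated strand leave some counts uncertain.

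Counts were pooled over the cells of each library, or of each cluster with at least 50 cells in both, and scaled to CPM by the pooled total. Python 3.11.15, numpy 2.4.6, scipy 1.17.1, pandas 2.3.3 and matplotlib 3.10.9 were used. Intervals were checked on simulated counts. No doublets were removed; cells with both Xist (at least 3 UMIs in the cells taken as Xist-positive) and Y-linked UMIs were left out as an alternative. Enzyme-rich cells had at least 1% of their UMIs in pancreatic acinar genes. In thinning, shallower cells were left out. Profiles were compared on log2 of CPM plus 1, over genes with at least 20 CPM in a library.

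The members, lists, markers and rules were chosen with earlier results of these data known. Named were all members, 13 fixed genes, the 8 most similar profiles and most of the genes that the list rule picked. That rule took up to 4 genes per list by the interval bound nearest to 0. Of its picks, Atf6b (−0.43), Mbtps2 (0.36), Txndc11 (0.45), Ssr3 (−0.54) and Hspe1 (−0.28) are given only here, and none was called over all cells. By cluster, Ssr3 was called lower in cluster 2 (−1.08). In cluster 4 Atf6b was called lower (−0.63), and Mbtps2 (0.62) and Txndc11 (0.67) higher. Other list genes were picked after their values were seen, because they were called or hold a promoter element. Hspa8 and Hsp90ab1, not called, were also picked then, as cytosolic Hsp70 and Hsp90 genes. Alternatives numbered 14. Protein sequences were not used here. Gene positions are from GENCODE vM21 and promoters from RefSeq, counted from 1.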

Additional observations from a re-analysis of the deposited data

Results flagged for a closer look

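Hsp90b1 differed in direction between clusters: its log2 ratio of KO over WT was 0.31 in cluster 4, the colonocyte-like cells (360 CPM in WT and 445 CPM in KO), and −0.32 in cluster 2, which is goblet-like (775 and 622 CPM). Xbp1 did so too, at 0.36 in cluster 5, the enteroendocrine-like cells (130 and 167 CPM), and −0.25 in cluster 3, the cycling-like cells (101 and 85.0 CPM). In both genes each interval left out equal levels, but with 1 library per genotype the difference between clusters was not tested. The value of Xbp1 in cluster 5 did not hold its sign, and was −0.08 (−0.77 to 0.59) in cells with Y-linked UMIs and without Xist.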

How the results depend on the processing

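Hspa5 kept its direction and its call over all cells in 11 of 11 alternatives that changed the scaling, the weight of cells or clusters, the depth or the cells kept, with log2 ratios between 1.22 and 1.34. Manf lay between 0.55 and 0.76. Hsp90b1 and Xbp1, near equal levels, kept their sign in 9 of 11 each. In Xist-positive cells that lacked Y-linked UMIs, 1 member was called higher and 1 lower over all cells: Manf (0.55) fell under 1.5-fold and Sdf2l1 (−0.59) passed it. With a 2-fold threshold 1 member was called higher over all cells, and by cluster 6 values were higher and 0 lower. No paired analysis was possible because there was 1 library per genotype, and no replicate could be left out. All 4 calls of members in cluster 5 were lost in at least 1 of 10 alternatives, as was Manf in cluster 0, and the other called values by cluster kept their call in 10 of 10. With cells thinned to 3000 UMIs, Hspa5 (1.04, 0.73 to 1.36) and Manf (0.79, 0.38 to 1.21) kept their calls in cluster 5 and Herpud1 and Creld2 did not. Depth limits Creld2 there, which rests on 55 and 27 UMIs.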
